A study of Mus musculus with 2 samples.

Results

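The 9 genes described here belong to the secretion of immunoglobulin A (IgA) in the gut. They are the J chain gene, 4 others grouped here with antibody-secreting plasma cells, 3 genes of the B cell surface and Pigr. Pigr is the epithelial receptor that carries IgA into the lumen. Of the 4, Pou2af1 also acts in B cells and Irf4 in T cells. The 9 genes are given by symbol, with no threshold on their values, and all were found among the 23284 genes listed in each library. The J chain gene (now Jchain) is listed under its older symbol Igj, and Mzb1 under 2010001M09Rik. The study sequenced polyadenylated RNA of small intestinal epithelial cells from wild-type mice (miR-215+/+) and from mice without miR-215 (miR-215-/-), a microRNA abundant in gut epithelium. There was 1 library per genotype. The sources used here do not give the number of animals behind a library, how the allele was made, whether it is lost in the whole animal, or strain, sex and age. No difference below therefore has a replicate check, no test of genotype was possible, and "higher" and "lower" set the knockout library against the wild-type one.

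IgA is the main antibody of mucosal surfaces. Plasma cells of the lamina propria make it as dimers joined by the J chain, and the polymeric immunoglobulin receptor on the basal side of epithelial cells binds the J chain-containing dimer, carries it through the cell in vesicles and releases it at the apical side together with its own cleaved outer part, the secretory component. The B cells that give rise to these plasma cells are primed in Peyer's patches, switch class to IgA, and return to the gut wall by chemokine and integrin signals.

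The microRNA absent from the knockout mice is shown with the family member that shares its seed, because the seed letters were searched in the transcripts of the 9 genes. Both sequences are from RefSeq on GRCm38.p6, the assembly of mm10, and the capitals mark the seed, bases 2 to 8.
mmu-miR-215-5p: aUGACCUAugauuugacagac
mmu-miR-192-5p: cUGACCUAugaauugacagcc
The DNA letters that pair with the seed are TAGGTCA. They were in the longest annotated 3' UTR of 0 of the 9 genes, against 6.84% of the 10979 genes kept that have such a UTR. The shorter match of bases 2 to 7, AGGTCA, was also in 0 of 9, against 29.9% of the same genes. The searched UTRs ran from 116 nt (Tnfrsf17) to 3309 nt (Irf4), with 801 nt for Igj and 1353 nt for Pigr. These letters are absent from these annotated windows, and nothing more was read from that.

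Promoter sequence around the start site, from RefSeq on GRCm38.p6, was at hand for 6 of the 9 genes. Windows of 30 bases are shown for Pigr, the most abundant of the 9, for Igj, which differed most, and for Tnfrsf17, whose match is of the same kind as that of Igj; the capitals mark the matched motif, searched on both strands.
Pigr, E-box, chr1:130826601-130826630, plus strand: atctgtggcagtCACGTGatctggctggct
Igj, IRF motif, chr5:88527965-88527994, minus strand: caaatcccagcTTTCTATTagagggaaaca
Tnfrsf17, IRF motif, chr16:11313697-11313726, plus strand: taaataggtggTTTCTGTTtcaggaatagt
The E-box CACGTG, a sequence bound by the USF factors, began at base -71 from the start of Pigr and was in 1 of the 6 promoters, against 7.15% of 32851 promoters of the same length. The IRF motif AANNGAAA was in the promoters of Igj, Tnfrsf17 and Pigr, where it began at base 8 of the transcript, and in 23.9% of all promoters. The octamer ATGCAAAT, the sequence through which the Pou2af1 product acts with its partner factors, was in 0 of the 6 and in 1.74% of all. These matches describe letters, not binding.

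Values are in FPKM (fragments per kilobase, scaled to the depth of sequencing), so levels of different genes can be set side by side. At 1 FPKM or more stood 11077 genes of the wild-type library and 11215 of the knockout library. Low values come in steps of whole fragments, and from these steps 1 FPKM over a transcript of 2 kb meant about 17.4 wild-type and 18.1 knockout fragments. Each fold below has an exact 95% Clopper-Pearson interval made from such estimated fragment numbers, which covers counting error only and not the spread between animals or preparations. Mir215 itself was listed at 137 FPKM (wild-type) and 0 (knockout), but the gene is too short for a fragment number to be given and this checks the labels only weakly. Markers of epithelium were abundant: all 12 were kept, from 64.8 FPKM (Cdx2, knockout) to 18795 FPKM (Fabp2, wild-type).

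Of the 9 genes, 7 reached 1 FPKM in a library and entered the comparison. On the log2(FPKM + 1) scale, 1 of the 7, Igj, was at least 2-fold higher and 0 were at least 2-fold lower. Over all 11504 genes kept, 1.34% were higher and 2.04% lower by that rule. The median log2 ratio of the 7 was -0.18 and that of all genes kept -0.05. By counting alone, the interval of the fold lay wholly above 1 for 1 of the 7 and wholly below 1 for 3. Of all genes kept with an annotated transcript 19.7% and 30.4% did so, so an interval that leaves out 1 is common in these libraries. The intervals are for the values as deposited and were not recomputed for other scalings.

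**Figure D1:**
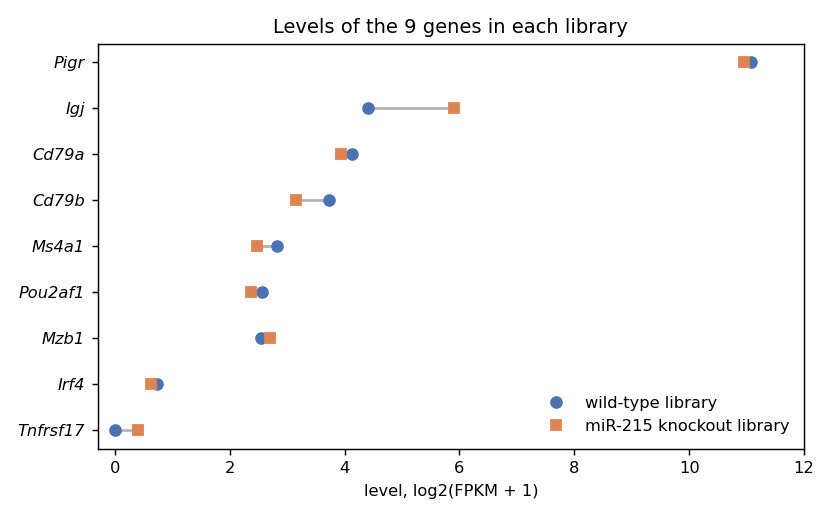
Level of each of the 9 genes as log2(FPKM + 1) on the horizontal axis, with a circle for the wild-type library and a square for the miR-215 knockout library. Pigr lies far to the right of the immune cell genes in both libraries, and Igj, at 20.3 and 58.6 FPKM, has the widest gap.

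The J chain gene was higher in the knockout library. Igj (ENSMUSG00000067149.6, chromosome 5, 88519809 to 88527891, minus strand) had a level of 20.3 FPKM (wild-type) and 58.6 FPKM (knockout). These values rested on about 234 and 703 fragments, 2.89-fold apart (counting interval 2.49 to 3.37). Its log2 ratio of 1.48 was the 55th highest of the 11504 genes kept, and by level it moved from rank 4085 to rank 1648 of all genes listed. The nearest listed genes on the chromosome did not share this difference: Utp3, a ribosome biogenesis gene, was at 12.5 and 11.1 FPKM, Rufy3 at 5.18 and 4.21 FPKM, and the enamel genes Enam and Ambn were listed at 0 in both libraries. No annotated gene overlaps Igj. In bulk RNA, more cells of a type and more RNA per cell cannot be told apart. Heavy and light chain genes were not analysed here: the only listed symbols of that pattern were Igll1, at 0 in both libraries, and Ighmbp2, which encodes a helicase and not an antibody chain.

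Mzb1 encodes an endoplasmic reticulum protein that helps antibodies assemble and leave the cell. It (ENSMUSG00000024353.5, chromosome 18, 35647267 to 35649367, minus strand) had levels of 4.85 FPKM (wild-type) and 5.52 FPKM (knockout), about 33 and 39 fragments. The fold was 1.14 with an interval of 0.698 to 1.87, which includes no difference; computed with the shortest annotated transcript the interval is wider, 0.444 to 3.21. A gene model on the same strand, SPATA24, overlaps it in the annotation and was not analysed here. The fragment numbers of Mzb1 were the lowest of the 7 genes kept.

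Pou2af1 encodes a B cell coactivator of octamer-binding factors that is needed for germinal centres and antibody genes. It (ENSMUSG00000032053.8, chromosome 9, 51213708 to 51240080, plus strand) was at 4.92 and 4.15 FPKM in the wild-type and knockout libraries, about 112 and 98 fragments. The fold was 0.844 (0.636 to 1.12), an interval that holds 1.

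Irf4 and Tnfrsf17 were below 1 FPKM in both libraries and were not among the 7. Irf4, a transcription factor that drives the plasma cell fate and also acts in T cells (ENSMUSG00000021356.10, chromosome 13, 30749226 to 30766976, plus strand), was at 0.665 and 0.552 FPKM, about 29 and 25 fragments. Its fold of 0.830 had an interval of 0.466 to 1.47. Tnfrsf17, the plasma cell survival receptor BCMA (ENSMUSG00000022496.5, chromosome 16, 11313812 to 11320074, plus strand), was listed at 0 (wild-type) and 0.327 FPKM (knockout), which is about 2 fragments and under the floor of 3, so no fold is given. The interval of Irf4 holds 1 and ends below 2, and for Tnfrsf17 the depth does not allow a comparison. Of the 3 genes kept from the plasma cell group, which counts in the B cell gene Pou2af1, Igj alone was past 2-fold. Its interval did not overlap those of Mzb1, Pou2af1 and Irf4, but with the shortest annotated transcript that of Mzb1 reached 3.21 and overlapped it.

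The 3 genes of the B cell surface were all lower in the knockout library, none by 2-fold. Cd79a and Cd79b encode the signalling chains that sit beside the immunoglobulin in the B cell receptor. Cd79a (ENSMUSG00000003379.7, chromosome 7, 24897381 to 24902197, plus strand) was at 16.4 and 14.4 FPKM, about 200 and 182 fragments, a fold of 0.877 (0.713 to 1.08). Cd79b (ENSMUSG00000040592.11, chromosome 11, 106311341 to 106314762, minus strand) was at 12.2 and 7.88 FPKM, about 118 and 79 fragments, a fold of 0.645 (0.479 to 0.865). The intervals of these partner genes overlapped, and that of Cd79a included no difference.

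Ms4a1 encodes CD20, a surface protein of mature B cells that plasma cells lose. It (ENSMUSG00000024673.9, chromosome 19, 11249675 to 11266241, minus strand) was at 6.05 and 4.54 FPKM, about 168 and 131 fragments, a fold of 0.751 (0.593 to 0.95). The antisense gene 4930526L06Rik that overlaps it was listed at 0 in both libraries. The direction of the 3 genes held under each of the 3 other scalings of the libraries tried, where Cd79a came closest to 0 at a log2 ratio of -0.05. These scalings multiply knockout values by 1.06 to 1.10, and the counting intervals were not recomputed for them. The same factor applies to a fold, and each of the 3 would carry the upper end of the Ms4a1 interval, 0.95, past 1. Among the scalings tried, that interval lies wholly below 1 only for the values as deposited.

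Pigr was the 32nd most abundant of all genes listed in the wild-type library and the 35th in the knockout library. It (ENSMUSG00000026417.13, chromosome 1, 130826684 to 130852249, plus strand) had levels of 2152 FPKM (wild-type) and 1987 FPKM (knockout), from about 75992 and 72829 fragments. The fold was 0.923 (counting interval 0.914 to 0.933), narrow because of the fragment number and not because of replicates. The log2 ratio was -0.12, and its sign turned with the scaling: it was 0.0190 with equal summed FPKM. Set against the median of the 12 epithelial markers, Pigr was at 2.24 times that level in the wild-type library and 2.33 times in the knockout library. Next to Pigr lie other receptors for IgA and IgM. Fcamr, a receptor for both, was at 1.14 and 1.51 FPKM (fold interval 0.668 to 2.51), and Fcmr, the IgM receptor of B cells listed as Faim3, was at 3.28 and 2.16 FPKM (0.399 to 1.07). Both intervals hold 1.

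**Figure D2:**
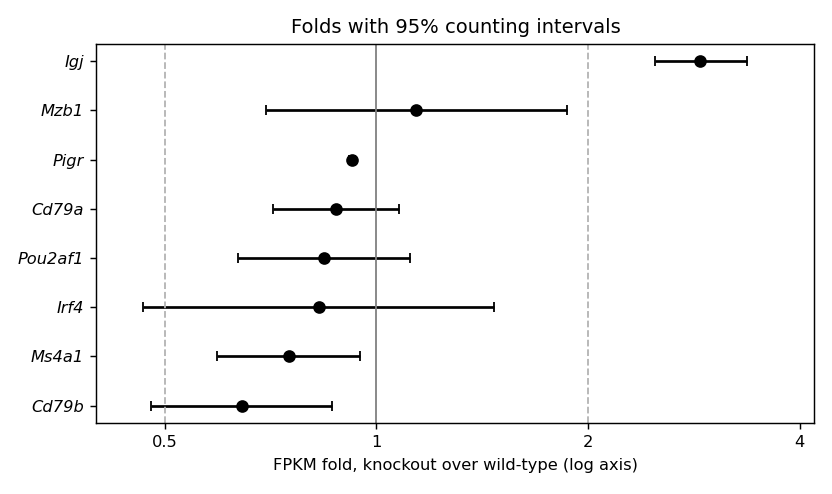
Ratio of FPKM, knockout over wild-type, on a log axis for the 8 genes with more than 3 fragments in a library; bars are 95% counting intervals, dashed lines mark 2-fold, and the bar of Pigr is narrower than its point. Igj, at 2.89 with an interval of 2.49 to 3.37, lies clear of the other 7.

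Within each library the levels can be read against each other. Igj stood at 1.24 times the level of Cd79a in wild-type RNA and 4.07 times in knockout RNA. Against Mzb1 it stood at 4.19 times and 10.6 times. The order of the 9 genes by level was Pigr, Igj, Cd79a, Cd79b, Ms4a1, Pou2af1, Mzb1, Irf4 and Tnfrsf17 in wild-type RNA, and in the knockout library Mzb1 stood above Ms4a1 and Pou2af1. Pigr exceeded Igj 106-fold in wild-type RNA and 33.9-fold in knockout RNA, so receptor transcripts outnumbered J chain transcripts per length in both. The ratio of Cd79a to the T cell gene Cd3e, chosen after its value was seen, was 1.53 (wild-type) and 1.54 (knockout). Cd3e was lower in the knockout library, as was Cd3g, while 8 of 11 T cell markers were above 0. Their median log2 ratio was 0.22, but -0.18 with a minimum of 5 FPKM. T cell markers thus went both ways, and the ratio is given for Cd3e alone.

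**Figure D3:**
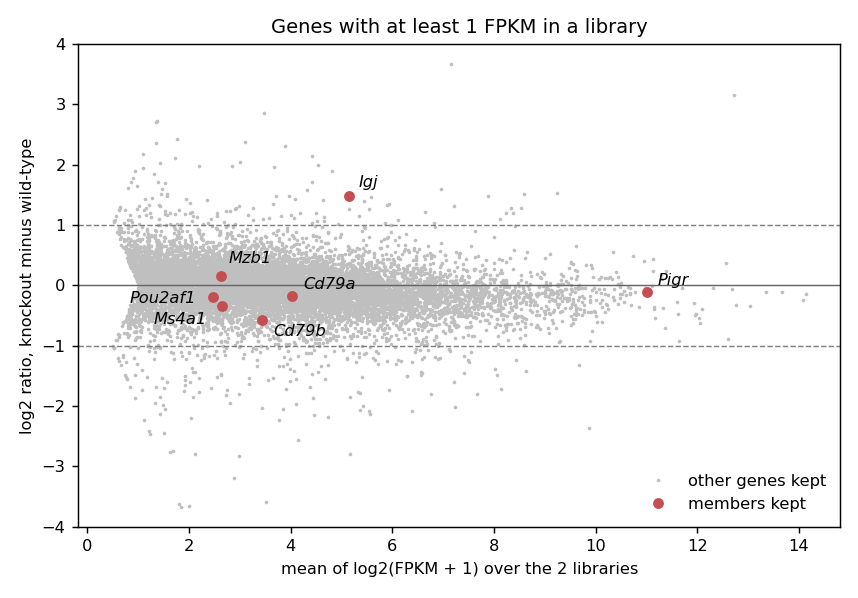
Log2 ratio (knockout minus wild-type, on log2(FPKM + 1)) against the mean log2(FPKM + 1) for genes with at least 1 FPKM in a library, in grey, with the 7 members kept in red; dashed lines mark 2-fold, and 33 genes beyond 4 on the vertical axis are not drawn. Igj is the only one of the 7 outside the dashed lines, and Pigr lies among the most abundant genes near 0.

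Further B cell genes were taken from a list of identity and signalling genes. Of 26, 24 were kept, 16 of them below 0 and 8 above, with 0 past 2-fold in either direction. The median log2 ratio was -0.16, and 66.7% were below 0, against 56% of all genes kept. This 56%, and the 1.34% higher and 2.04% lower by 2-fold, are the shares to set beside the counts of every list below. Tnfrsf13c, the receptor through which naive B cells receive the survival factor BAFF, was lowest, at 3.44 and 1.98 FPKM (fold 0.575, 0.364 to 0.894). Named after their values were seen, Pax5, the factor that holds B cell identity, was at 1.23 and 0.889 FPKM (0.524 to 0.999), and Bach2, a repressor that delays the plasma cell fate, was at 1.78 and 1.34 FPKM (0.578 to 0.965). Cd72, an inhibitory surface protein, was at 7.77 and 5.95 FPKM (0.554 to 1.04), and Cd180 at 1.11 and 0.6996 FPKM (0.321 to 1.21).
The kinase genes Syk and Lyn went the other way. Syk was at 3.52 and 4.58 FPKM (fold interval 1.06 to 1.59) and Lyn, the most abundant of the list, at 25.3 and 29.5 FPKM (1.06 to 1.28). Both are also expressed by myeloid cells. Ciita and Cd22, named after their values were seen, were higher too. Ciita was at 6.85 and 8.68 FPKM (1.08 to 1.49) and Cd22 at 2.14 and 2.74 FPKM (0.939 to 1.79). Of the 24 genes, the interval lay wholly above 1 for 3 and wholly below 1 for 3. That is 12.5% each, against 19.7% and 30.4% of all genes kept with an annotated transcript. Whether an interval leaves out 1 depends on fragment number as well as on the fold. These shares were not compared at like levels, so the lower shares do not show that the list differed less. The list's median stayed below 0 under every scaling, pseudocount and filter tried, with a range of -0.21 to -0.07.

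**Figure D4:**
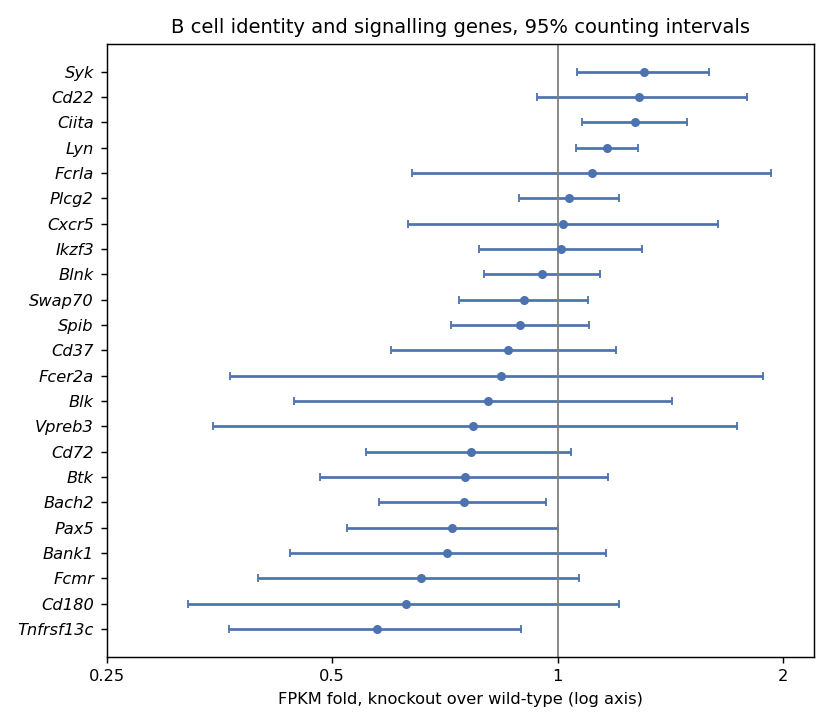
Ratio of FPKM, knockout over wild-type, on a log axis for 23 of the 24 B cell identity and signalling genes kept, with 95% counting intervals. The points run from 0.575 (Tnfrsf13c) to 1.30 (Syk), and for 17 of the 23 the interval holds 1.

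A second list held plasma cell genes and the endoplasmic reticulum machinery of antibody secretion, which epithelial cells also use. Of 20 genes 18 were kept, 12 above 0 and 6 below, with 3 at least 2-fold higher, 0 at least 2-fold lower and a median of 0.17. The share below 0 was 33.3%, against 56% of all genes kept. The 3 were Creld2, a stress-induced reticulum protein, at 21.8 and 53.8 FPKM (fold 2.46, 2.13 to 2.87), the disulfide isomerase gene Pdia4 at 20.5 and 42.2 FPKM (2.06, 1.84 to 2.31), and the prolyl isomerase gene Fkbp11 at 1.17 and 3.37 FPKM, about 6 and 18 fragments (2.89, 1.10 to 8.89). Hsp90b1, the reticulum chaperone GRP94 and by the mean of both libraries the most abundant of the list, was at 144 and 270.2 FPKM (1.80 to 1.95), and Herpud1 at 81.0 and 160.0 FPKM (1.85 to 2.11).
Further genes of this list, Xbp1, Sdc1, Cd38, Derl3 and Prdm1, are named after their values were seen. Xbp1, the secretory transcription factor, was at 154 and 148 FPKM (fold interval 0.908 to 1.01), and Sdc1, encoding CD138, was lower at 42.8 and 30.8 FPKM (0.660 to 0.784). Gut epithelium expresses both. Cd38, a surface enzyme of plasma cells and other cells, was at 29.8 and 22.4 FPKM (0.677 to 0.829). Ly96, a coreceptor of TLR4 placed in this list, was at 17.1 and 8.26 FPKM (0.287 to 0.763). The degradation factor gene Derl3 was at 0.364 and 1.31 FPKM, about 4 and 15 fragments (fold 3.61, 1.15 to 15.0), and the plasma cell regulator Prdm1, also an epithelial gene, at 3.51 and 6.01 FPKM (1.37 to 2.14).

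Genes of the germinal centre, the follicle and the epithelium over Peyer's patches were read as the third group. Of 17 genes 16 were listed and 12 kept, 4 above 0 and 8 below, with 2 at least 2-fold lower and a median of -0.18. The share below 0 was 66.7%, against 56% of all genes kept. The 2 were chemokine genes. Cxcl13, which draws B cells into follicles, was at 6.24 and 2.59 FPKM (fold 0.415, 0.253 to 0.687), and Ccl20, made by follicle-associated epithelium, was at 5.88 and 2.34 FPKM (0.398, 0.202 to 0.785). Tnfaip2 was at 2.04 and 1.12 FPKM (0.364 to 0.823), Ltb, a lymphotoxin gene of lymphoid tissue formation, at 6.59 and 4.46 FPKM (0.449 to 1.02), and Bcl6, the germinal centre regulator, at 4.40 and 3.40 FPKM (0.599 to 0.997). Marcksl1 was the most abundant, at 32.3 and 37.8 FPKM (1.03 to 1.33). The log2 ratios of Cxcl13 and Ccl20, -1.01 and -1.04, lie at the edge of the 2-fold rule: with each of the 3 other scalings 1 gene of the 7 lists around IgA was at least 2-fold lower, against 3 as deposited.

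Homing genes went both ways. Of 13 genes 8 were kept, 4 above 0 and 4 below, with 0 past 2-fold on the log2(FPKM + 1) scale and a median of 0.03. Itgb7, whose product pairs with the Itga4 product to bind the gut vessel addressin, was at 3.49 and 7.25 FPKM, about 84 and 181 fragments (fold 2.08, 1.59 to 2.72). Ccl28, the epithelial chemokine that attracts IgA-secreting cells through Ccr10, was at 11.1 and 19.4 FPKM (1.76, 1.55 to 2.0). Ccr10 was listed at 0.270 and 0.326 FPKM, about 4 and 5 fragments (fold interval 0.259 to 6.07). Ccr9 was at 1.30 and 2.01 FPKM (1.06 to 2.26), while its ligand gene Ccl25 was at 712 and 595 FPKM (0.805 to 0.868). S1pr1, a receptor gene of recirculating lymphocytes, was at 1.60 and 1.05 FPKM (0.399 to 1.07).

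Signals for the class switch to IgA and for survival were read next. Of 24 genes 14 were kept, 6 above 0 and 8 below, with 1 at least 2-fold lower and a median of -0.14. That gene was Aldh1a1, which makes retinoic acid, a signal for IgA switching and gut homing, at 419 and 159 FPKM (fold 0.379, 0.361 to 0.399). The related gene Aldh1a2 of this list, named after its values were seen and below 1 FPKM, went the other way. It was at 0.299 and 0.817 FPKM, about 6 and 17 fragments (fold 2.73, 1.03 to 8.45). Tnfsf13, encoding the survival factor APRIL that binds BCMA, was at 23.7 and 19.6 FPKM (0.690 to 0.984). Smad3, which relays TGF-beta, was at 12.7 and 9.96 FPKM (0.693 to 0.883), and Rara, a retinoic acid receptor, at 14.5 and 11.02 FPKM (0.653 to 0.876). Il10ra was at 1.12 and 0.662 FPKM (0.320 to 1.02). The cytokine genes Il5 and Il6 were listed at 0 in both libraries.

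For Pigr, 2 lists were read: factors that control it and the vesicle route of its product. Of 27 control genes 23 were kept, 6 above 0 and 17 below, with 0 past 2-fold and a median of -0.13. The share below 0 was 73.9%, against 56% of all genes kept and 66.7% of the epithelial markers. Relb, a subunit of NF-kappa B, was at 69.0 and 48.0 FPKM (fold 0.695, 0.639 to 0.755), the adaptor gene Ticam1 at 47.9 and 33.6 FPKM (0.644 to 0.763), and Ifngr2, a chain of the interferon gamma receptor and the most abundant of the list, at 231 and 169 FPKM (0.705 to 0.755). Nr3c1, the glucocorticoid receptor gene, was at 36.8 and 27.6 FPKM (0.704 to 0.800). Il4ra was higher, at 22.2 and 29.1 FPKM (1.21 to 1.42). Named after their values were seen, because the motifs printed above belong to their families, are Usf1 at 26.1 and 25.5 FPKM, Usf2 at 26.6 and 22.4 FPKM and Irf1, an interferon-induced factor that raises Pigr, at 166 and 158 FPKM.
Of 27 route genes 26 were kept, 8 above 0 and 18 below, with 0 past 2-fold and a median of -0.10, which turned to 0.03 with equal summed FPKM. Rab17, an epithelial GTPase of transcytosis, was at 80.9 and 54.2 FPKM (fold 0.669, 0.611 to 0.733), and Yes1, the kinase that acts in transport of the receptor, at 25.7 and 18.2 FPKM (0.624 to 0.800). Ap1b1, an adaptor subunit, was at 45.1 and 59.5 FPKM (1.24 to 1.41). Rab8a was at 169 and 134 FPKM (0.762 to 0.817), and Rab5b at 41.6 and 32.7 FPKM (0.720 to 0.854). The median of the epithelial markers was -0.09, and 0.05 with equal summed FPKM. Below 0 were 69.2% of the route genes and 66.7% of the epithelial markers, against 56% of all genes kept. The interval lay wholly below 1 for 47.8% of the control genes, 50% of the route genes and 58.3% of the epithelial markers. Of all genes kept with an annotated transcript, 30.4% did so. Such shares depend on fragment number too, and they are for the values as deposited.

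**Figure D5:**
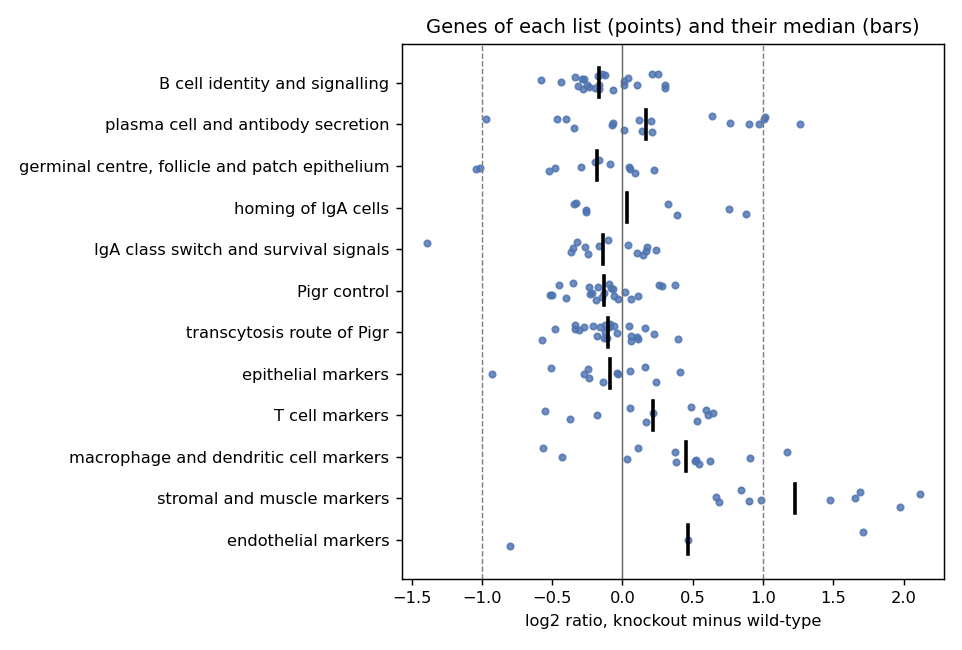
Log2 ratio (knockout minus wild-type, on log2(FPKM + 1)) of each gene kept, as points, in 7 lists around IgA and 5 lists of cell type markers; black bars are medians and dashed lines mark 2-fold. The B cell list lies between -0.58 and 0.30, while the stromal and muscle list lies between 0.67 and 2.12.

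Markers of other cell types differed between the libraries as well. Of 12 stromal and muscle markers 10 were kept, all 10 above 0 and 5 at least 2-fold higher, and their summed level was 18.4 FPKM (wild-type) and 54.5 FPKM (knockout). Macrophage and dendritic cell markers had 10 of 12 above 0, a median of 0.45 and sums of 102 and 116 FPKM. Among 11 T cell markers 8 were above 0, with a median of 0.22 (-0.18 with a minimum of 5 FPKM) and sums of 86.8 and 85.8 FPKM. The interval lay wholly above 1 for 5 of them and wholly below 1 for 2. Cd3g, the most abundant of this list, was lower at 38.9 and 29.8 FPKM and weighs most in the sums. Of all genes kept 56% were below 0. Of 8 endothelial markers 3 were kept, with sums of 2.28 and 5.42 FPKM. Pecam1 was at 0.810 and 1.499 FPKM and Plvap at 0.454 and 3.77 FPKM, while Tek was lower, at 1.02 and 0.156 FPKM (fold 0.153, 0.0595 to 0.352); of those not kept, Kdr and Emcn were at 0 in the wild-type library. The part that non-epithelial cells of the lamina propria have in the J chain difference was not tested. Of the B cell and plasma cell members only Igj was at least 2-fold higher at the pseudocount of 1, with Tnfrsf17 too low to be kept; Creld2, Fkbp11 and Pdia4 of the antibody secretion list were also at least 2-fold higher.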

How the data were processed

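The deposited values are FPKM, 1 per gene and library. Named in the submitters' processing notes are Cuffnorm 2.2.1, TopHat2 2.0.13, SAMtools 0.1.19, Bowtie2 2.2.3 and, as build, mm10; the sources used here do not give roles, settings, annotation or strand use. The unit stands in no header and was inferred from the tool, the layout and the values.

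Kept were genes that reached 1 FPKM in a library, and the log2 ratio is log2(knockout + 1) minus log2(wild-type + 1), which understates differences of low genes. At least 2-fold on it is a rule of size. Folds are ratios of FPKM without the added 1. Fragment numbers were estimated from the steps of low values: 246 of 602 genes under 0.1 FPKM shared 1 ratio, 0.963. Of single-transcript genes, 1 fragment was worth 0.103 FPKM over 1 kb in the wild-type library, after an offset of 200 nt from the length. GENCODE M21 on GRCm38 gave lengths, the median of RefSeq-linked transcripts, for 98.0% of the genes. The estimate was tested on simulated data of single-transcript genes only. That does not cover the choice of length for genes with more than 1 transcript. Python 3.11.15 and scipy 1.17.1 were used.

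The members and lists were chosen with earlier results of these data known. Named from each list were the 5 kept genes with the log2 ratio of largest size and the most abundant one, except for the lists of other cell types, given by counts and sums; some genes under this rule are not reported here, and genes outside it, such as chromosomal neighbours, Ccr10 and Cd3e, were chosen after their values were seen. The most abundant gene is by the mean of both libraries. Alternatives were other pseudocounts, filters, scalings, transcript lengths, an epithelial reference in place of Pigr, and seed rules. No set test was run.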

Additional observations from a re-analysis of the deposited data

How the results depend on the processing

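Igj was at least 2-fold higher under every pseudocount, filter and scaling tried, with log2 ratios from 1.33 to 1.62, and 0 members were at least 2-fold lower under any. The Igj to Pigr ratio was 3.13-fold higher in the knockout library, and 3.25-fold with the epithelial median in place of Pigr. Pigr, at -0.12, was at 0.0190 with equal summed FPKM, -0.0111 with equal upper quartiles and -0.0297 with equal epithelial medians. In the 7 lists around IgA, 3 genes were 2-fold higher and 3 lower; the higher were 5 with a pseudocount of 0.1, equal sums or equal upper quartiles and 1 with a pseudocount of 5, and the lower were 1 with a pseudocount of 5 and with each of the 3 scalings. The split of all genes, 154 higher and 235 lower, was 339 and 361 with a pseudocount of 0.1, 60 and 120 with 5, 97 and 180 with a minimum of 5 FPKM, and 209 and 185 with equal sums, which moved the median of all genes from -0.05 to 0.07. Of the members' log2 ratios under the alternatives, 37 moved by no more than the distance from the middle of the counting interval to its end, and 3, those of Pigr, by more; Tnfrsf17, which has no interval, went from 0.41 to 2.09 with a pseudocount of 0.1 and to 0.09 with 5; of the list medians, 57 moved by at most 0.1 and 26 by more. With the shortest or longest transcript, no interval changed sides of 1, but with the shortest that of Mzb1 ran from 0.444 to 3.21 and overlapped that of Igj; for Irf4 the shortest left too few fragments. No paired analysis was possible because each genotype has 1 library, and none could be left out. Depth limits Tnfrsf17, Ccr10 and the cytokine genes most.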

Other observations

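Genes beside the members on the chromosome gave further values. Next to Pou2af1 lie its relatives Colca2 (listed as Gm684), with 3.11 FPKM (wild-type) and 1.31 FPKM (knockout), a fold of 0.421 (counting interval 0.208 to 0.812), and 1810046K07Rik, at 6.10 and 4.45 FPKM (0.495 to 1.07). Next to Ms4a1, its relative Ms4a7, a macrophage gene, was at 1.58 and 3.60 FPKM (fold 2.28, 1.29 to 4.36). Snx29, the neighbour of Tnfrsf17, was at 4.04 and 2.37 FPKM (0.395 to 0.852).

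The receptors for the survival factors APRIL and BAFF were each below 4 FPKM in both libraries. Tnfrsf13b, encoding TACI, was at 0.757 and 0.182 FPKM, about 4 and 1 fragments, with a fold interval of 0.00489 to 2.43. The BAFF gene Tnfsf13b was at 9.64 and 10.9 FPKM (0.996 to 1.29).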
